A study of Mus musculus with 4 samples.

Results

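The G1/S and DNA replication genes described here were 46 genes that act when a cell leaves G1 and copies its DNA, chosen by gene name, with earlier results of these data known. All 46 were found among the 18193 named genes of an Affymetrix whole-genome mouse array, through 105 probe sets. Each gene was represented by its brightest probe set, meaning the one whose 4 signals had the highest mean. The genes fell into 11 for origin licensing and helicase loading, 4 for helicase activation, 13 polymerases and fork proteins, 4 for nucleotide supply, 1 for maintenance methylation, 7 G1/S cyclins and kinases, 3 E2F factors and 3 CDK inhibitors.

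The study asked how effector T helper (Th) cells with high surface CD30, a receptor of the tumor necrosis factor receptor family, differ from those with low CD30 (CD30low) before they give rise to memory cells. Splenic CD4 T cells of the mouse were cultured for 6 days with ovalbumin peptide and irradiated splenocytes depleted of T cells, under Th17 or Th1 conditions, and sorted on CD30. The 4 populations were CD30high Th17, CD30low Th17, CD30high Th1 and CD30low Th1 cells, with 1 array each. Th17 cultures held 10 ng/ml each of IL-6, IL-1beta and IL-23 and 10 µg/ml each of antibodies to IL-4 and IFN-gamma. Th1 cultures held 1 µg/ml antibody to IL-4, 100 U/ml IL-12 and 30 U/ml IL-2. Per the labels the starting CD4 T cells were CD44low and CD62Lhi for both CD30high samples and CD44low and CD62Llow for both CD30low samples, whereas the methods give naive CD44low CD62Lhigh cells throughout, and this difference was not resolved. The methods describe T cells with a transgenic receptor for ovalbumin, from DO11.10 or OTII mice. The methods give 1 age range for all mice of the study. Which of the mice stood behind each array, their sex, and whether cells of several animals were pooled, are not given in the sources used here.

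Because no population had a second array, no value has a replicate error and no difference could be set against a spread between replicates. Signals are linear, scaled by the authors to nearly the same trimmed mean (496.5 to 496.8), and are compared only within a gene, since probe sets differ in brightness. A gene was counted as 2-fold higher or lower when the ratio of 2 signals reached 2, with signals below 100 set to 100, and the brighter signal was at least 300. All log2 values below are ratios between 2 arrays unless a signal is named. T cell markers were at 100 or more on every array for all 8 genes named of 10, Il17a was at 14443 in CD30high and 1398 in CD30low Th17 cells, against 49.4 in CD30high and 37.7 in CD30low Th1 cells, and Tbx21 was at 243 and 281 in CD30high and CD30low Th17 cells, against 2352 and 2189.8 in CD30high and CD30low Th1 cells. Tnfrsf8, the gene of CD30, was dim on all arrays, with 132 in CD30high and 34.9 in CD30low Th17 cells, and 51.1 in CD30high and 13.3 in CD30low Th1 cells.

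Before S phase, the origin recognition complex, Cdc6 and Cdt1 load the MCM helicase onto DNA, and geminin prevents a repeat of that step. Cyclin D with Cdk4 or Cdk6, and then cyclin E with Cdk2, release E2F factors from the retinoblastoma protein, and E2F factors switch on many genes of nucleotide synthesis and replication. Activated T cells divide fast for several days after antigen, and these genes are commonly read as a sign of how many cells of a culture are cycling. With cells sorted and measured in bulk, fewer cells in S phase and less RNA per cell cannot be told apart.

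E2F factors bind the promoters of many replication genes, and those of 5 genes described below with such motifs, Rfc3 with the widest range of signals, 3 MCM subunits and Pola1, are shown for this reason. RefSeq promoter windows (GRCm38.p6, 250 bases before to 50 bases after the transcript start) were found for 39 of the 46 genes, and 4 forms of the E2F motif (TTTCCCGC, TTTGGCGC, TTTCGCGC and TTTGCCGC) were searched on both strands, where matches may overlap. The last of the 4 forms had no match among these genes. Capitals mark the matches, and each sequence is written 5′ to 3′ on the strand of its gene. The windows are Rfc3 at chr5:151651159-151651458 (minus strand), Mcm6 at chr1:128359656-128359955 (minus), Mcm5 at chr8:75109259-75109558 (plus), Mcm3 at chr1:20820263-20820562 (minus) and Pola1 at chrX:93632106-93632405 (minus).
Rfc3: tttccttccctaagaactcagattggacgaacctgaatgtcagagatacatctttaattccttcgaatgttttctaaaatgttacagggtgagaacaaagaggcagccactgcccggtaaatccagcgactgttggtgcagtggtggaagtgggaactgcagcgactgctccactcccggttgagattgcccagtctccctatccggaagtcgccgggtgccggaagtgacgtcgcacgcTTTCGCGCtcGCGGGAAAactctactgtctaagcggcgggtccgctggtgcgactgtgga
Mcm6: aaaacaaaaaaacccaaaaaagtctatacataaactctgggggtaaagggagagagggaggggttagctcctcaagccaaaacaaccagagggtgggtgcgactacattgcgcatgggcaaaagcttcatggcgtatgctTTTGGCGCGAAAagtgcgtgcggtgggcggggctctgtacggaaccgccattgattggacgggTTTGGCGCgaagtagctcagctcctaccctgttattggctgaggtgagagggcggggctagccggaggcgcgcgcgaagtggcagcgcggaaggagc
Mcm5: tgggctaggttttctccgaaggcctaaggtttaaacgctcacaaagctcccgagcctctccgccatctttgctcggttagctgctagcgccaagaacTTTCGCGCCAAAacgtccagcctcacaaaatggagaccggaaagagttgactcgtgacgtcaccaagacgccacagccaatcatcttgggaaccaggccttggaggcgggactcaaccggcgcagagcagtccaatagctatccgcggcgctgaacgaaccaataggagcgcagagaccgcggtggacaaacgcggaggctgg
Mcm3: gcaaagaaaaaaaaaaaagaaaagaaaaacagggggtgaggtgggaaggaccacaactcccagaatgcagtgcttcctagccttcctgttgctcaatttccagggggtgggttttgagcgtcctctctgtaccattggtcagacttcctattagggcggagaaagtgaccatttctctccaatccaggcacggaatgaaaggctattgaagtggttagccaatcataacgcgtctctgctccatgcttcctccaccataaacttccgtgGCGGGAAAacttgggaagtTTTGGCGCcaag
Pola1: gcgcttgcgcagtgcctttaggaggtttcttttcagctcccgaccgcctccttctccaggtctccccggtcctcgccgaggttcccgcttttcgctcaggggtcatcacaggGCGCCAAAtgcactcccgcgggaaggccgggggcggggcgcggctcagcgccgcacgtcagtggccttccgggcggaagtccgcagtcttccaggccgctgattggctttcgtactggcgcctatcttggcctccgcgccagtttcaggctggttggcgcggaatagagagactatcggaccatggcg

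Of the 39 windows, 15 (38.5%) held at least 1 match, against 704 of 27025 genes (2.6%) in the whole table and 350 of 6788 genes (5.16%) that reached 300 on any array. The 15 were Orc1, Cdc6, Cdt1, Mcm3, Mcm5, Mcm6, Mcm7, Pola1, Pold1, Rfc3, Lig1, Uhrf1, Cdk2, E2f2 and E2f3, and 5 of them held more than 1 match. In Mcm6 and Mcm5, 2 matches on opposite strands overlap and show as 1 run of capitals. Genes with and without a match had similar median log2 ratios in the CD30 comparisons, which were -0.13 with and -0.20 without in Th17 cells, and 0.28 with and 0.24 without in Th1 cells. A match is a description of letters in this window, and binding was not measured.

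The 46 genes were well measured in every population, and 44 of them had signals of at least 300 on all 4 arrays. The exceptions were E2f1, which was below that level in CD30low Th1 cells alone, and Tyms. The ratio of a gene's brightest to its dimmest array had a median of 1.60 and ran from 1.13 for Rpa2 to 8.49 for Rfc3. It reached 2 for 6 genes, namely Orc6, Pola1, Rfc3, Fen1, Tyms and Cdkn1a, and stayed under 1.3 for 8, namely Cdt1, Mcm7, Gins2, Pcna, Rpa2, Ccnd3, Cdk4 and E2f3. These counts describe the brightest probe sets, and the shares of all genes past the same limits were not counted. Dimmer probe sets of Mcm7, Gins2, Rpa2, Ccnd3, Cdk4 and E2f3 ranged more widely. CD30low Th1 cells gave the lowest signal for 36 of the 46 genes, where 27.1% of the 8227 genes that reached 300 on any array had theirs. CD30low Th17 cells gave the highest for 25 of the 46, against 22.4% of those 8227 genes.

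**Figure D1:**
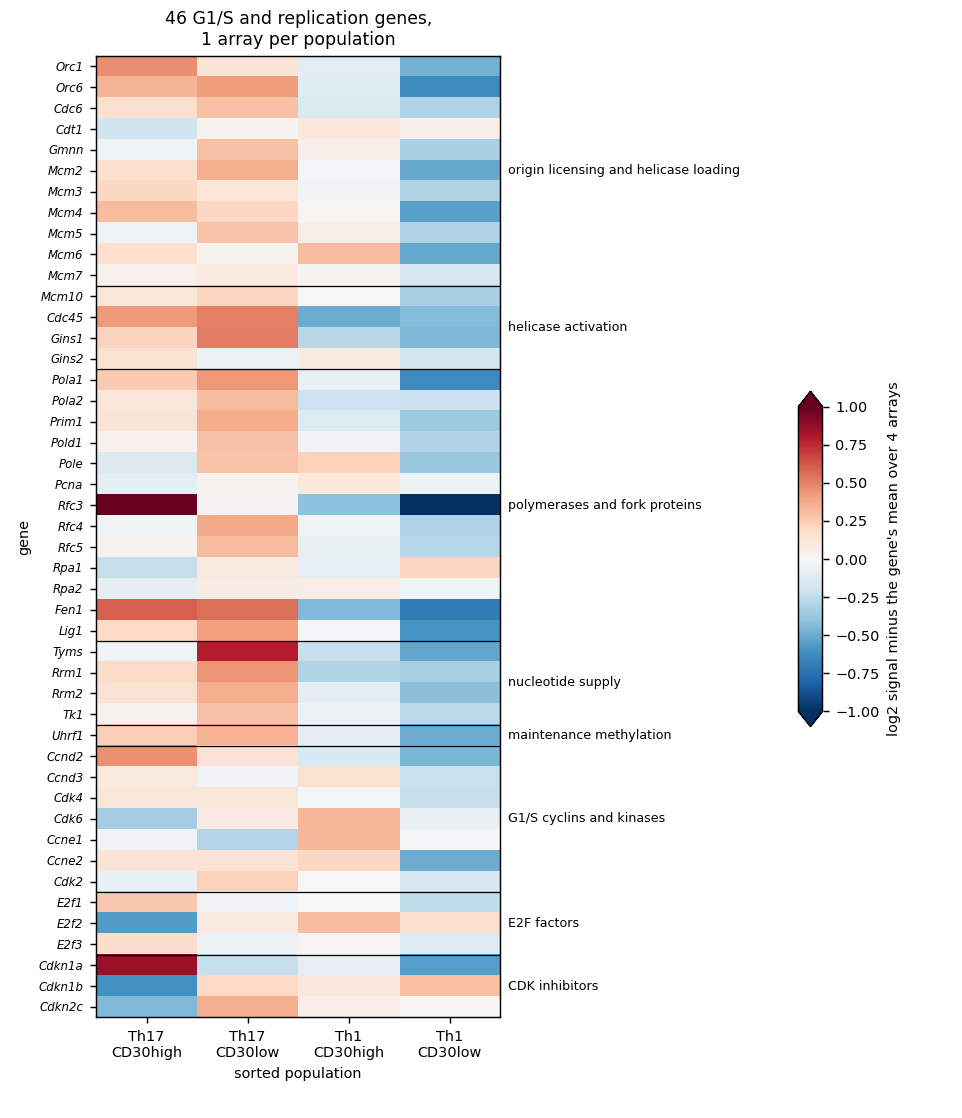
Signals of the 46 genes (rows, grouped by role) in the 4 sorted populations (columns), as log2 signal minus the gene's own mean over the 4 arrays, red above and blue below that mean, with the scale ending at -1 and 1. The CD30low Th1 column is blue for most replication genes, with 36 of 46 genes lowest there, and Rfc3 and Cdkn1a stand out in CD30high Th17 cells.

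CD30high and CD30low Th17 cells differed little in most of these genes, with 2 exceptions. Rfc3, a subunit of the clamp loader, was 3.27-fold higher in CD30high Th17 cells, and Cdkn1a, the gene of an inhibitor of cyclin-dependent kinases, was 2.13-fold higher. These were 2 of 46 genes at 2-fold higher and 0 of 46 at 2-fold lower, where 3.94% and 3.66% were of all 7786 genes that reached 300 in either population. Below that limit the ratios leaned to the CD30low side, with 32 of the 46 below 1 against 47.9% of all measured genes, and a median log2 ratio of -0.17 against 0.02 for all genes. At a limit of 1.5-fold the count was 2 higher and 4 lower (Tyms, E2f2, Cdkn1b and Cdkn2c), where 9.52% and 9.12% of all genes were.

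In Th1 cells the direction was the other one. CD30high Th1 cells had higher signals than CD30low Th1 cells for 43 of the 46 genes, where 50% of all measured genes had, and the median log2 ratio was 0.27 against 0.00 for all genes. The differences were small: of the 45 genes that reached 300 in either population, 0 were 2-fold higher and 0 were 2-fold lower, against 0.794% and 0.486% of 7813 genes. At 1.5-fold, 4 were higher, namely Mcm6, Rfc3, Pole and Ccne2, and 0 were lower, where 4.04% and 3.57% of all genes were. The 3 genes with ratios below 1 were Cdc45, Rpa1 and Cdkn1b.

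Set side by side, 29 of the 46 genes were above in CD30high Th1 cells and below in CD30high Th17 cells, relative to the CD30low cells of the same lineage, a pattern of 18.3% of the 8227 genes. The reverse pattern was found for 0 of 46, against 22.1% of all genes. The CD30 log2 ratio was lower in Th17 than in Th1 cells for 41 of the 46, against 47.6% of all genes, and the median of the difference was -0.45 against 0.02 for all genes. With 4 arrays there is no residual left to test this difference. The 5 genes with a higher CD30 ratio in Th17 cells were Rfc3, Ccnd2, E2f1, E2f3 and Cdkn1a.

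**Figure D2:**
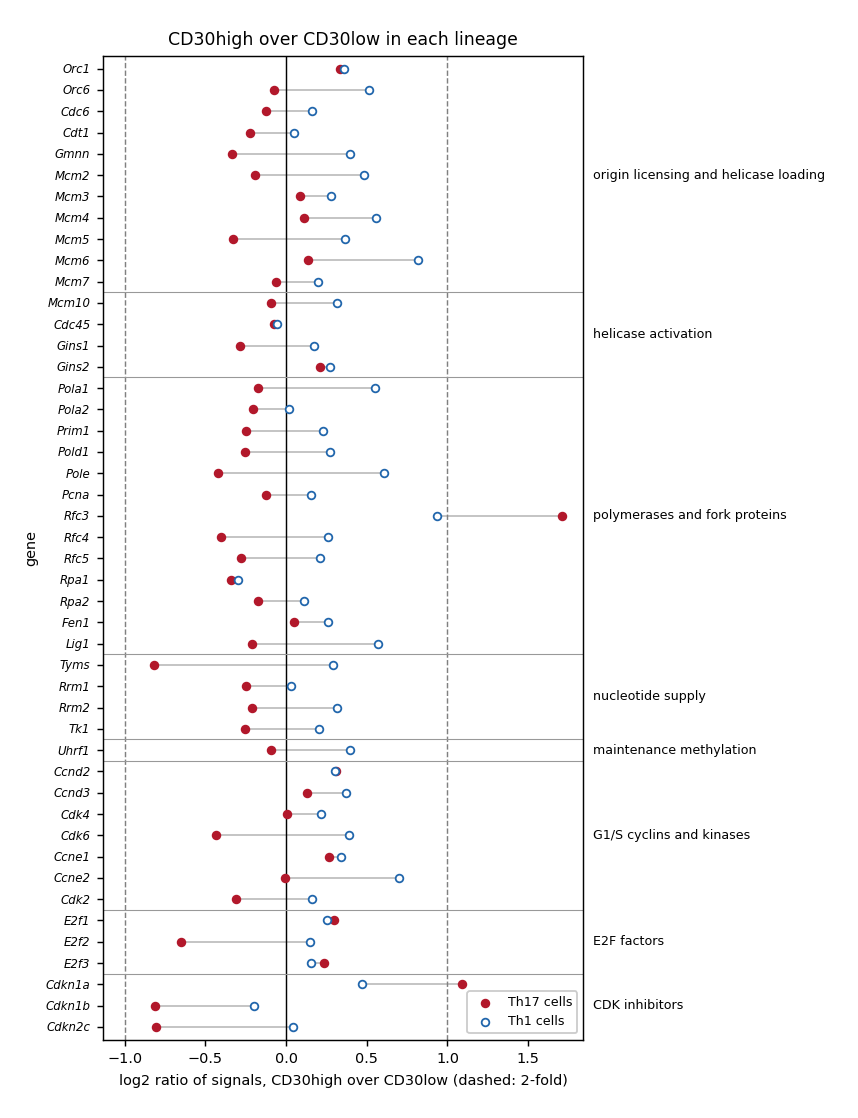
Log2 ratio of CD30high over CD30low signals for each gene, filled red points for Th17 cells and open blue points for Th1 cells, joined by a grey line, with dashed lines at 2-fold. Most red points lie left of their blue partner (41 of 46), and only the red points of Rfc3 and Cdkn1a lie beyond 2-fold.

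Between the lineages, Th17 cells had the higher signals, most clearly among CD30low cells. There, 41 of the 46 genes were higher in CD30low Th17 than in CD30low Th1 cells, against 47.9% of all measured genes, with a median log2 ratio of 0.60 against -0.02. Orc6, Pola1, Rfc3, Fen1 and Tyms were 2-fold higher in CD30low Th17 cells, which is 5 of 46 against 3.53% of 7857 genes, and 0 of 46 were 2-fold lower, against 5.83%. At 1.5-fold, 24 of the 46 were higher, against 11.7% of all genes, and 0 were lower, against 13.3%. Among CD30high cells the median was 0.13 against -0.01 for all genes, 30 of 46 ratios were above 1 against 48.8%, and of 45 genes Rfc3 and Fen1 were 2-fold higher (4.98% of 7979 genes) and 0 were 2-fold lower (6.86%). At 1.5-fold among CD30high cells, 5 were higher and 3 lower, where 13.6% and 14.9% of all genes were.

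Of the 46, 30 were higher in Th17 than in Th1 cells in both sorts (37.7% of the 8227 genes), 5 were lower in both (35.4%), and 11 were higher in Th17 cells among CD30low and lower among CD30high cells (12.2%). Each array enters 1 CD30 comparison and 1 lineage comparison, so a low signal in CD30low Th1 cells raises both the Th1 CD30 ratio and the lineage ratio among CD30low cells. The lineages also differed in other transcripts. Eif2s3y, which lies on the Y chromosome, had signals of 9.39 and 1.41 in CD30high and CD30low Th17 cells, against 1640.0 and 1784 in CD30high and CD30low Th1 cells. Of 4 sex-linked genes, 4 were at 100 or more in each Th1 population and 1 in each Th17 population. Only Xist, of the X chromosome, was higher in Th17 cells, with log2 ratios of 0.48 among CD30high and 0.61 among CD30low cells, and 3 were lower. The summed signal of 5 CD8 and natural killer genes was 743 and 1013 in CD30high and CD30low Th17 cells, against 7062 and 9345 in CD30high and CD30low Th1 cells. The part of the sex-linked or the CD8 and natural killer transcripts in the lineage ratios was not tested, and lineage cannot be told apart from the animals used.

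**Figure D3:**
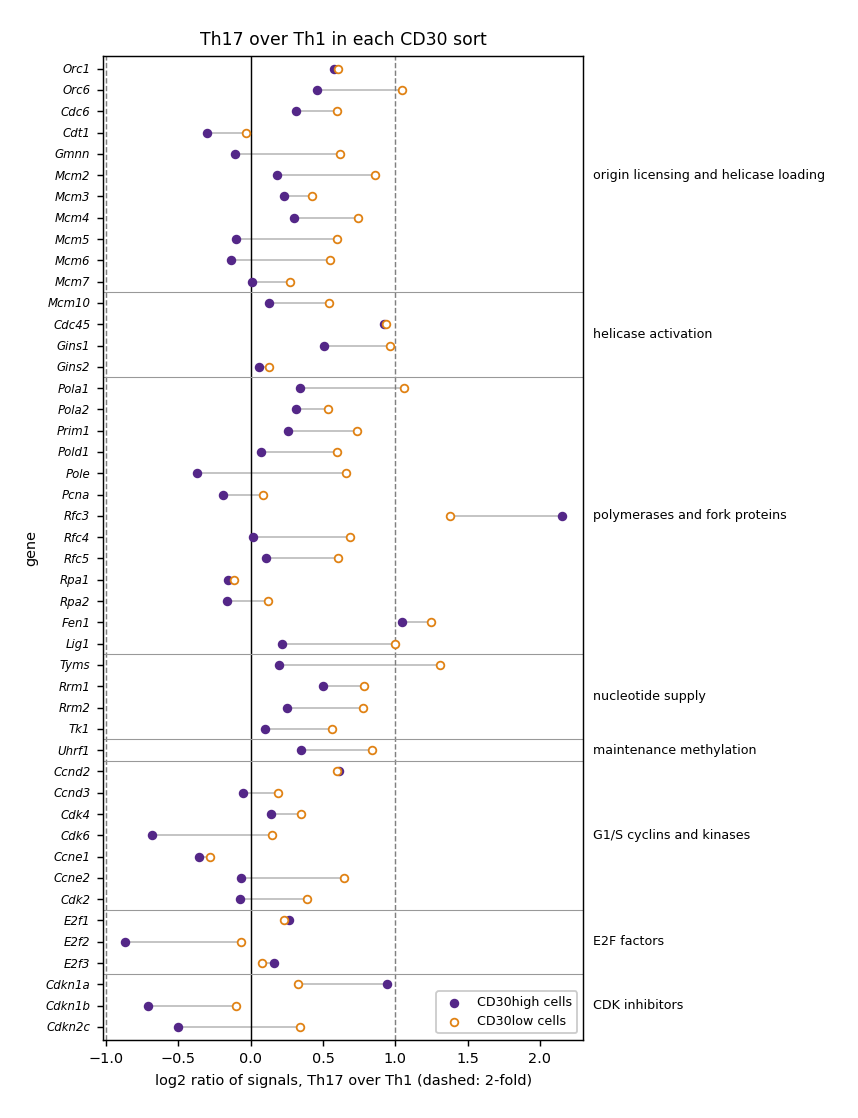
Log2 ratio of Th17 over Th1 signals for each gene, filled purple points for CD30high cells and open orange points for CD30low cells, joined by a grey line, with dashed lines at 2-fold. The orange points sit mostly to the right of 0 (41 of 46), while the purple points lie closer to 0, with Rfc3 and Fen1 beyond 2-fold.

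Among the licensing genes, the MCM helicase subunits Mcm2 to Mcm7 shared the low value in CD30low Th1 cells. Mcm6 had the largest CD30 ratio of them in Th1 cells, with signals of 7679 in CD30high and 6987 in CD30low Th17 cells, and 8428 in CD30high and 4784 in CD30low Th1 cells. CD30low Th1 cells were thus well below the other 3 populations, and the log2 ratio of CD30high over CD30low was 0.14 in Th17 and 0.82 in Th1 cells. Its promoter, shown above, carries 3 matches to the E2F motif. Mcm4 had signals of 8591 in CD30high and 7939.5 in CD30low Th17 cells, and 6970.1 in CD30high and 4740.0 in CD30low Th1 cells, and CD30low Th1 cells were again lowest, although a dimmer probe set gave a CD30 log2 ratio of only 0.07 in Th1 cells, against 0.56 on the brightest. Mcm5 had 6888 in CD30high and 8669.8 in CD30low Th17 cells, and 7398 in CD30high and 5739 in CD30low Th1 cells, and was named, like Gmnn below, after its values were seen. CD30high cells were thus lower among Th17 cells and higher among Th1 cells, with log2 ratios of -0.33 and 0.37. Mcm7 was the brightest of the licensing probe sets, with 12865 in CD30high and 13418 in CD30low Th17 cells, and 12777 in CD30high and 11128 in CD30low Th1 cells. These 4 signals lay within 1.21-fold of each other, but a dimmer probe set ran from 1939.6 in CD30low Th1 to 3102 in CD30low Th17 cells. Mcm2 and Mcm3 had CD30 log2 ratios of -0.19 and 0.09 in Th17 cells and of 0.49 and 0.28 in Th1 cells. The next brightest probe sets of Mcm3 gave the other sign in Th17 cells, with -0.18, -0.10 and -0.13. So did the dimmer probe set of Mcm4, with -0.15 in Th17 cells against 0.11 on the brightest.

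The origin recognition complex marks where replication can start. Orc1, its largest subunit, had signals of 951 in CD30high and 754 in CD30low Th17 cells, and 638 in CD30high and 497 in CD30low Th1 cells. It was higher in CD30high cells of both lineages, by 0.33 in Th17 and 0.36 in Th1 cells on the log2 scale, and higher in Th17 cells in both sorts, by 0.58 among CD30high and 0.60 among CD30low cells. Orc6, the smallest subunit, had 1618 in CD30high and 1707 in CD30low Th17 cells, and 1178 in CD30high and 827 in CD30low Th1 cells. CD30high and CD30low Th17 cells were nearly alike in Orc6, and the Th17 over Th1 log2 ratio was 0.46 among CD30high and 1.05 among CD30low cells. Cdc6, which loads the helicase together with Cdt1, had CD30 log2 ratios of -0.13 in Th17 and 0.16 in Th1 cells. Cdt1 itself hardly differed, with all 4 signals within 1.24-fold. Gmnn, the gene of geminin that binds and blocks Cdt1, had 4555 in CD30high and 5744 in CD30low Th17 cells, and 4909.8 in CD30high and 3737 in CD30low Th1 cells. Its signal was highest in CD30low Th17 and lowest in CD30low Th1 cells, with the CD30high populations between them.

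Of the 4 genes of helicase activation, Cdc45 separated the lineages and not the CD30 sorts. Cdc45 joins MCM and the GINS complex to form the working helicase, and had signals of 1057 in CD30high and 1114 in CD30low Th17 cells, and 559 in CD30high and 582 in CD30low Th1 cells. Both Th17 populations lay above both Th1 populations, with Th17 over Th1 log2 ratios of 0.92 among CD30high and 0.94 among CD30low cells. A dimmer probe set of Cdc45 differed from this, with signals of 247 in CD30high and 105 in CD30low Th17 cells, and 190 in CD30high and 94.4 in CD30low Th1 cells, and thus with CD30 log2 ratios of 1.24 in Th17 and 0.92 in Th1 cells. Gins1, a GINS subunit, had 1206 in CD30high and 1469 in CD30low Th17 cells, and 849.9 in CD30high and 755 in CD30low Th1 cells. The lineages did not overlap in Gins1 either. Mcm10, which helps to start unwinding, had 849 in CD30high and 908 in CD30low Th17 cells, and 779 in CD30high and 625 in CD30low Th1 cells, with CD30low Th1 cells lowest. Gins2 had Th17 over Th1 log2 ratios of 0.06 among CD30high and 0.12 among CD30low cells.

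The polymerases and fork proteins held the gene with the widest range. Rfc3 encodes a subunit of replication factor C, which loads the sliding clamp onto DNA, and had signals of 6644 in CD30high and 2034 in CD30low Th17 cells, and 1498 in CD30high and 782 in CD30low Th1 cells. CD30high Th17 cells stood far above the other 3 populations and CD30low Th1 cells below them, and the ratios were 3.27-fold and 1.91-fold for CD30high over CD30low in Th17 and Th1 cells, and 4.44-fold and 2.60-fold for Th17 over Th1 among CD30high and CD30low cells. The other probe set of Rfc3 gave 7109 in CD30high and 1588 in CD30low Th17 cells, and 1231 in CD30high and 772 in CD30low Th1 cells. The order of the populations was the same on both probe sets. The clamp loader subunits Rfc4 and Rfc5 did not share this pattern, with CD30 log2 ratios of -0.41 and -0.28 in Th17 cells and 0.26 and 0.21 in Th1 cells.

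The clamp itself, Pcna, was among the most even genes, with signals of 25670.2 in CD30high and 27976 in CD30low Th17 cells, and 29394 in CD30high and 26442 in CD30low Th1 cells. Pola1, the catalytic subunit of polymerase alpha that starts each new strand, had 1372 in CD30high and 1547 in CD30low Th17 cells, and 1083 in CD30high and 740.4 in CD30low Th1 cells. CD30low Th1 cells were lowest, and the Th17 over Th1 log2 ratio was 1.06 among CD30low and 0.34 among CD30high cells. Pola2, its regulatory subunit, had 907 in CD30high and 1044 in CD30low Th17 cells, and 730.0 in CD30high and 722 in CD30low Th1 cells, with both Th17 populations above both Th1 populations. Prim1, the catalytic subunit of primase, had CD30 log2 ratios of -0.25 in Th17 and 0.23 in Th1 cells, and the other probe set gave the opposite signs, 0.06 and -0.08. Pole, the catalytic subunit of polymerase epsilon on the leading strand, had 1094 in CD30high and 1468 in CD30low Th17 cells, and 1419 in CD30high and 929.6 in CD30low Th1 cells. It was lower in CD30high than in CD30low Th17 cells and higher in CD30high than in CD30low Th1 cells, with log2 ratios of -0.42 and 0.61. Pold1, the catalytic subunit of polymerase delta, had smaller ratios of the same signs, -0.25 in Th17 and 0.27 in Th1 cells, whereas its other probe set gave 0.10 in Th17 and 0.31 in Th1 cells.

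Fen1 and Lig1 complete the lagging strand. Fen1, a nuclease that removes flaps, had signals of 4675 in CD30high and 4510.2 in CD30low Th17 cells, and 2268 in CD30high and 1898 in CD30low Th1 cells. The lineages did not overlap and differed 2.06-fold among CD30high and 2.38-fold among CD30low cells. The brightest probe set of Fen1 is of a type made to match more than 1 transcript. The other probe set had 2116 in CD30high and 2277 in CD30low Th17 cells and 1684 in CD30high and 1384 in CD30low Th1 cells. Its ratios were smaller, 1.26-fold among CD30high and 1.64-fold among CD30low cells. Lig1, the ligase that seals the fragments, stood just outside the limit among CD30low cells, with a Th17 over Th1 log2 ratio of 1.00 that was under 2-fold before rounding. Rpa1, which coats single-stranded DNA, had 12526 in CD30high and 15839.6 in CD30low Th17 cells, and 13960.0 in CD30high and 17184 in CD30low Th1 cells. CD30high cells were lower in both lineages, with log2 ratios of -0.34 in Th17 and -0.30 in Th1 cells, and the other probe set gave -0.22 and -0.37. Rpa2 lay within 1.13-fold on all arrays on its brightest probe set, while its other probe set ran from 993 in CD30high Th17 to 1434 in CD30high Th1 cells.

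All 4 genes of nucleotide supply were lower in CD30high than in CD30low Th17 cells and higher in CD30high than in CD30low Th1 cells. For Rrm1 the Th1 log2 ratio was only 0.03, against 0.41 on a dimmer probe set. Tyms, which makes thymidylate, had signals of 265 in CD30high and 467 in CD30low Th17 cells, and 231 in CD30high and 189 in CD30low Th1 cells, and CD30low Th17 cells stood above the rest. This probe set was dim, with 3 of 4 signals under 300, and the other probe sets of Tyms were dimmer still. Rrm1 and Rrm2 are the subunits of ribonucleotide reductase. Rrm2 had 15327 in CD30high and 17753 in CD30low Th17 cells, and 12863 in CD30high and 10349 in CD30low Th1 cells, and both Th17 populations were above both Th1 populations, as they were in Rrm1, whose Th17 over Th1 log2 ratios were 0.50 among CD30high and 0.78 among CD30low cells. On the dimmer probe set of Rrm1 these ratios were 0.01 and 0.70, so the lineages were nearly alike there among CD30high cells. Tk1, which salvages thymidine, had CD30 log2 ratios of -0.26 in Th17 and 0.21 in Th1 cells. Uhrf1, which brings the maintenance methyltransferase to newly copied DNA, had 4249 in CD30high and 4541 in CD30low Th17 cells, and 3344 in CD30high and 2537 in CD30low Th1 cells, with CD30low Th1 cells lowest. The dimmer probe set of Uhrf1 showed that low value more strongly, with 215 in CD30low Th1 cells against 587 to 603 in the other 3 populations.

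The G1/S cyclins and kinases did not share 1 pattern. Ccnd2, a D-type cyclin, had signals of 16800.3 in CD30high and 13534 in CD30low Th17 cells, and 11017 in CD30high and 8932 in CD30low Th1 cells. It was higher in CD30high cells by 0.31 in Th17 and 0.30 in Th1 cells on the log2 scale, and higher in Th17 cells by 0.61 among CD30high and 0.60 among CD30low cells. All 7 probe sets of Ccnd2 had the same directions, with CD30 log2 ratios between 0.28 and 0.48 in Th17 and between 0.30 and 1.05 in Th1 cells. Ccnd3, another D-type cyclin, had 5448 in CD30high and 4972 in CD30low Th17 cells, and 5654 in CD30high and 4369.9 in CD30low Th1 cells, which is a narrow range. A dim probe set of Ccnd3 gave CD30 log2 ratios of -0.71 in Th17 and -0.46 in Th1 cells, so the direction of Ccnd3 depended on the probe set. The kinase partners of the D-type cyclins also differed from each other. Cdk4 had 3312 in CD30high and 3299 in CD30low Th17 cells, and 3008 in CD30high and 2591 in CD30low Th1 cells, and Cdk6 had 6485 in CD30high and 8769 in CD30low Th17 cells, and 10399 in CD30high and 7921 in CD30low Th1 cells. Cdk6 was thus lowest in CD30high Th17 and highest in CD30high Th1 cells, and its CD30 log2 ratios of -0.44 and 0.39 were close to those of the next brightest probe set, -0.46 and 0.23.

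Cyclin E works with Cdk2 at the start of S phase. Ccne2 had signals of 1812 in CD30high and 1824 in CD30low Th17 cells, and 1900.2 in CD30high and 1169 in CD30low Th1 cells. CD30low Th1 cells were again apart from the other 3 populations, with a CD30 log2 ratio of 0.70 in Th1 and -0.01 in Th17 cells. Ccne1 had 1067 in CD30high and 888 in CD30low Th17 cells, and 1369.9 in CD30high and 1080.5 in CD30low Th1 cells, and on this probe set was lower in Th17 than in Th1 cells in both sorts. The other probe set of Ccne1 had CD30 log2 ratios of -0.56 in Th17 and 0.34 in Th1 cells, and Th17 over Th1 log2 ratios of -0.39 among CD30high and 0.51 among CD30low cells. The direction of CD30 in Th17 cells and that of the lineages among CD30low cells were thus not shared between its probe sets. Cdk2 had 1432 in CD30high and 1772 in CD30low Th17 cells, and 1507 in CD30high and 1351 in CD30low Th1 cells, with CD30low Th17 cells highest.

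The E2F factors split as well. E2f2, an activating E2F, had signals of 1226 in CD30high and 1928 in CD30low Th17 cells, and 2242 in CD30high and 2020.0 in CD30low Th1 cells. CD30high Th17 cells were below the other 3 populations, with a CD30 log2 ratio of -0.65 in Th17 cells, and the other probe set showed the same with 460.0 in CD30high Th17 cells against 1114.5 to 1315 elsewhere, a log2 ratio of -1.28. E2f1 had 406 in CD30high and 331 in CD30low Th17 cells, and 337 in CD30high and 282 in CD30low Th1 cells, and E2f3 had 652 in CD30high and 553 in CD30low Th17 cells, and 583 in CD30high and 524 in CD30low Th1 cells. Both activators were highest in CD30high Th17 cells, by small margins, and the dimmer probe sets of both put Th1 above Th17 cells.

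All 3 CDK inhibitors were, with Rfc3 and Tyms, among the 5 genes that differed most in size of ratio between CD30high and CD30low Th17 cells. Cdkn1a, which binds cyclin-CDK complexes and PCNA and is a known target of p53, had signals of 7819 in CD30high and 3675 in CD30low Th17 cells, and 4064 in CD30high and 2928 in CD30low Th1 cells. CD30high Th17 cells were above all other populations, 2.13-fold over CD30low Th17 cells, and the other probe set gave 2.14-fold. Cdkn1b, which inhibits cyclin E with Cdk2 in resting cells, had 1409 in CD30high and 2473 in CD30low Th17 cells, and 2308 in CD30high and 2655 in CD30low Th1 cells. Cdkn2c, an inhibitor of Cdk4 and Cdk6, had 1142 in CD30high and 1996 in CD30low Th17 cells, and 1622 in CD30high and 1573 in CD30low Th1 cells. Both were lowest in CD30high Th17 cells, with CD30 log2 ratios of -0.81 and -0.81 there, against -0.20 and 0.04 in Th1 cells. Within Th17 cells, Cdkn1a was higher and Cdkn1b and Cdkn2c lower in CD30high cells.

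The Th17 CD30 ratios were measured beside a difference in myeloid transcripts. The summed signal of 7 myeloid genes was 2170 in CD30high and 7534 in CD30low Th17 cells, against 478 in CD30high and 267 in CD30low Th1 cells, and 3 to 4 of the 7 were at 100 or more in the Th17 populations. Of the 5 that reached 100 in either Th17 population, 3 were lower and 2 were higher in CD30high cells. Only 2 of the 5 reached 300, and both were 2-fold lower in CD30high Th17 cells. S100a8 was at 1209.9 in CD30high and 5192 in CD30low Th17 cells, against 7.51 in CD30high and 2.11 in CD30low Th1 cells. No dendritic cell marker reached 100 on any array, and at most 2 of 4 B cell markers did. The part of the myeloid transcripts in the ratios of the replication genes was not tested.

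Probe sets of the same gene are the only technical repeat here. Over 2928 genes with at least 2 probe sets at 300 or more, the SD of a log2 ratio per probe set was 0.199 for CD30 in Th17, 0.227 for CD30 in Th1, and 0.308 and 0.287 for Th17 over Th1 among CD30high and CD30low cells. Over the 30 described genes with a usable further probe set, this SD was larger for CD30, at 0.277 in Th17 and 0.260 in Th1 cells. For Th17 over Th1 it was 0.256 among CD30high and 0.293 among CD30low cells of these 30 genes. Many of the CD30 ratios above are of these sizes or smaller. Probe sets of a gene are read on the same arrays, so neither SD covers differences between arrays, sorts or cultures. For the 30 genes with a usable further probe set, the direction was the same on both in 21 genes for CD30 in Th17 cells and in 26 for CD30 in Th1 cells, and the medians of the further probe sets were -0.12 and 0.32, against -0.07 and 0.27 for the brightest probe sets of the same 30 genes. For Th17 over Th1 the direction was the same in 26 genes among CD30high and 23 among CD30low cells, with medians of 0.02 and 0.36 on the further probe sets, against 0.15 and 0.48 on the brightest of the same 30 genes.

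**Figure D4:**
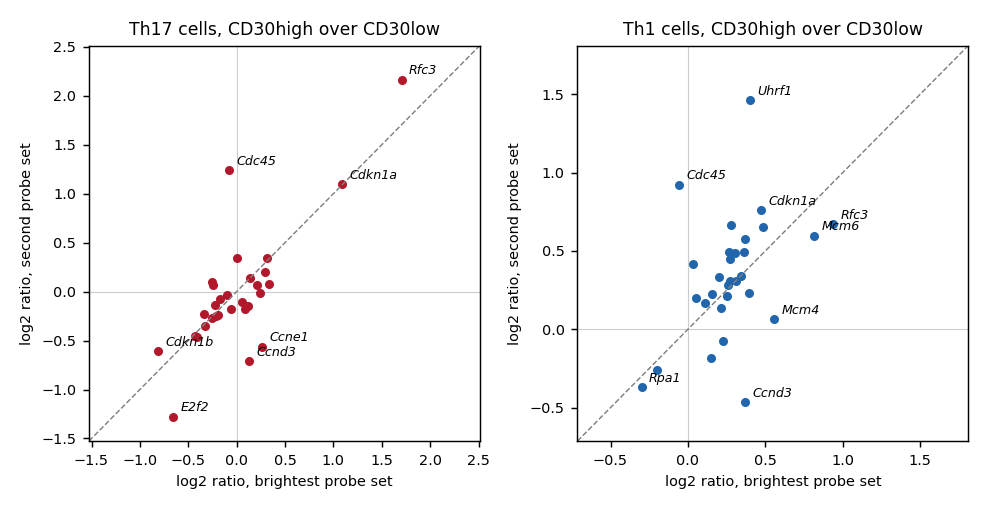
CD30high over CD30low log2 ratio of the brightest probe set (horizontal) against that of the next brightest (vertical) for the 30 genes that have one with a mean signal of at least 100, Th17 cells left and Th1 cells right, with a dashed line of equality. Rfc3 and Cdkn1a agree on both probe sets, while Cdc45, Ccnd3 and Ccne1 (left) and Cdc45, Uhrf1 and Ccnd3 (right) lie far from the line.

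A limma fit over all 4 arrays, with lineage and CD30 sort as additive terms, treats the sorts as repeats of a lineage and the lineages as repeats of a sort. For the lineage term, limma called 401 of 8438 genes (4.75%) at an adjusted p below 0.05, 132 higher (1.56%) and 269 lower (3.19%) in Th17 cells. Of the 46, 2 were called higher and 0 lower. Fen1 was higher by 1.15 on the log2 scale (SE 0.14, limma adjusted p = 0.0352), and Rfc3 by 1.76 (SE 0.23, limma adjusted p = 0.0355). The call of Fen1 rests on its brightest probe set, and the other gave smaller log2 ratios, 0.33 among CD30high and 0.72 among CD30low cells. With no filter on low signals limma called 0 of all 18193 genes, and with no variance trend 150 of 8438 genes but 0 of the 46. With no filter, an unadjusted limma p below 0.05 was reached by 7 of the 46, where 11% of all genes reached it. With no variance trend it was reached by 11 of the 46, where 27.2% of all genes reached it. Cdc45 and Ccnd2 were just outside, with limma adjusted p of 0.0541 and 0.0571. At an unadjusted p below 0.05, 15 of the 46 were included, all 15 higher in Th17 cells, where 29% of all genes were included in either direction.

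For the CD30 term limma called 0 of 8438 genes, the 46 included, and the smallest adjusted p among the 46 was 0.439. An unadjusted p below 0.05 was reached by 866 genes (10.3%), among them 4 of the 46. These were Rfc3 (log2 1.32, SE 0.23), Cdkn1a (0.78, SE 0.19) and Ccnd2 (0.31, SE 0.11), which were higher in CD30high cells, and Rpa1 (-0.32, SE 0.11), which was lower. The fit had 1 residual degree of freedom, which is the difference of the CD30 ratio between the lineages, so genes with opposite ratios in Th17 and Th1 cells have a large error in it.

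Genes of the same pathway outside the 46 were read in the same way. Of 46 further replication genes 43 were named on the array, and their median log2 ratio of CD30high over CD30low was -0.11 in Th17 cells, with 31 of 43 below 1, and 0.15 in Th1 cells, with 36 of 43 above 1. None of the 43 reached 2-fold between the CD30 sorts in either lineage. Among CD30low cells their Th17 over Th1 median was 0.48 and 6 were 2-fold higher, namely Mcm8, Cdc7, Ticrr, Dna2, Asf1b and Nasp. Cdc7, the kinase that fires origins, had signals of 2516 in CD30low Th17 and 1127 in CD30low Th1 cells. Dna2, a nuclease and helicase of the lagging strand, had 1823 in CD30low Th17 and 809 in CD30low Th1 cells. Among CD30high cells the median was 0.21 and 0 were 2-fold different.

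Of 24 other G1/S regulators named on the array, 19 were measured in the Th17 and 23 in the Th1 CD30 comparison, with medians of -0.05 and 0.29. For Th17 over Th1, 22 were measured in each sort. Among CD30low cells, 4 were 2-fold higher in Th17 cells, namely the repressive E2F factors E2f7 and E2f8, Skp2, which targets the product of Cdkn1b for degradation, and Myc, a transcription factor that drives growth. Myc had signals of 6029.7 in CD30high and 4539 in CD30low Th17 cells, and 3323 in CD30high and 2212 in CD30low Th1 cells. The order was thus Th17 above Th1 cells, and CD30high above CD30low cells in each lineage. Cdkn2a among CD30low cells and Cdkn2b among CD30high cells, both inhibitors of Cdk4 and Cdk6, were 2-fold lower in Th17 cells, with Th17 signals under 100.

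The mitosis genes, which act after replication, also had opposed CD30 ratios in the 2 lineages. All 37 measured had lower signals in CD30high than in CD30low Th17 cells, with a median log2 ratio of -0.37, and 36 of 37 had higher signals in CD30high than in CD30low Th1 cells, with a median of 0.35. Cdc25b, a phosphatase that starts mitosis, was 2-fold lower in CD30high Th17 cells, at 758 in CD30high against 1966 in CD30low Th17 cells. Among CD30low cells the Th17 over Th1 median of the mitosis genes was 0.61, and Bub1, Ttk, Ndc80 and Spc25 were 2-fold higher. Among CD30high cells it was -0.17, below 0, whereas that of the 46 was 0.13.

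**Figure D5:**
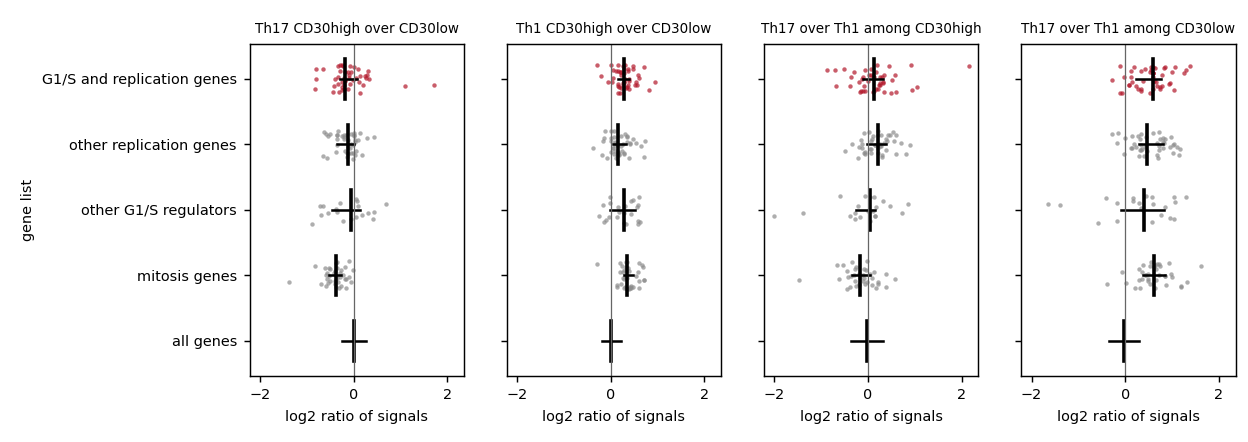
Log2 ratios of single genes (points) in the 4 comparisons (panels) for the 46 genes and the 3 neighbouring lists, with the median as a tall black bar and the middle 50% of genes as a horizontal bar, and with all measured genes at the bottom. The 46 have medians of -0.17 and 0.27 for CD30high over CD30low in Th17 and Th1 cells, and of 0.13 and 0.60 for Th17 over Th1 among CD30high and CD30low cells, against all-gene medians near 0.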

How the data were processed

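RNA of 4 sorted mouse T helper populations was labelled and hybridized to 1 Affymetrix 3′ expression array each. The deposited intensity values are linear probe set signals computed by the authors with Affymetrix software, named as the GeneChip Operating Software in the methods and as Affymetrix Expression Console per the submitters' processing notes. The version, summary algorithm and scaling target are not given in the sources used here. Scaling to a common mean hides any shift shared by most genes. Precision is limited by having 4 arrays.

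Groups came from the sample titles. Of 45037 probe sets, 34945 had 1 gene symbol, 932 had several and were left out, and 9160 were unnamed here. Symbols were updated through gene IDs to RefSeq for 34741 probe sets. The brightest probe set stood for a gene. Signals below 100 were set to 100 before log2 ratios were taken, a gene counted as measured at 100 or more on either array, and the fold rule required at least 300 on the brighter array. Pairwise comparisons had no test. limma 3.58.1 (R 4.3.3; lmFit and eBayes with a variance trend, Benjamini-Hochberg adjustment) was fitted to log2 signals of 8438 genes with a mean of at least 200. Its script was also run on simulated signals with known lineage changes and no CD30 changes. The only condition set was that the estimates correlated with those changes. With 1 residual degree of freedom, it is read as a description of these arrays.

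The members and lists were chosen with earlier results of these data known. Signals on all 4 arrays are given for genes past the fold rule, the 4 genes at each end of each CD30 comparison, both ends of each role by mean signal, and all cyclins, kinases, E2F factors and inhibitors, and for Mcm4, Mcm5 and Gmnn, chosen after their values were seen. Promoter windows are those of RefSeq GRCm38.p6. Other scalings, floors, fold limits and probe set choices were tried as alternatives. Python 3.11.15 with pandas 2.3.3, numpy 2.4.6 and matplotlib 3.10.9 was used for the rest.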

Additional observations from a re-analysis of the deposited data

Results flagged for a closer look

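The CD30 comparison ran in opposite directions in the 2 lineages for the 46 genes as a group and for 4 single genes, with a log2 ratio of at least 0.3 in size in each lineage for the single genes. The share of all genes past this 0.3 limit in opposite directions was not counted, so the 4 genes are listed as examples only. The difference between the lineages was not tested, since each population had 1 array. The median log2 ratio of CD30high over CD30low for the 46 genes was -0.17 in Th17 and 0.27 in Th1 cells. For Gmnn, the gene of geminin, it was -0.33 in Th17 and 0.39 in Th1 cells. For Mcm5, a subunit of the replicative helicase, it was -0.33 in Th17 and 0.37 in Th1 cells, and the next brightest probe set gave -0.35 and 0.57. For Pole, the catalytic subunit of polymerase epsilon, it was -0.42 in Th17 and 0.61 in Th1 cells. For Cdk6, the kinase partner of D-type cyclins, it was -0.44 in Th17 and 0.39 in Th1 cells. Gmnn and Pole had 1 probe set each, so their ratios have no second reading.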

How the results depend on the processing

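For CD30, the median log2 ratio of the 46 genes stayed between -0.18 and -0.12 in Th17 and 0.27 and 0.32 in Th1 cells. For Th17 over Th1 it stayed between 0.02 and 0.13 among CD30high and 0.36 and 0.60 among CD30low cells. The median difference of the CD30 ratios stayed between -0.48 and -0.37. In each range, 1 end came from the next brightest probe sets, which cover only 30 of the 46 genes. On their brightest probe sets the same 30 genes had CD30 medians of -0.07 in Th17 and 0.27 in Th1 cells. Counts of genes past the fold rule moved with the limit: at 1.5-fold there were 6 for CD30 in Th17, 4 for CD30 in Th1, 8 for Th17 over Th1 among CD30high and 24 among CD30low cells. For Th17 over Th1 among CD30high cells, 1 gene was past 2-fold after quantile normalization and 1 without probe sets of the types made to match several transcripts. With the mean of probe sets, and on the next brightest probe sets, it was 1 higher, Rfc3, and 1 lower, E2f2, against 2 higher and 0 lower as reported. On the next brightest probe sets, 1 gene, Uhrf1, reached 2-fold for CD30 in Th1 cells, and 2 genes were higher and 1 lower for CD30 in Th17 cells. The settings without some types of probe set and with the next brightest one were chosen after seeing the data. limma's lineage calls among the 46 were 4 after quantile normalization (of 759 among 8440 genes), 0 with no filter on low signals (0 among 18193) and 0 with no variance trend (150 among 8438), against 2 as reported (401 among 8438). The median of the other G1/S regulators for Th17 over Th1 among CD30high cells turned to -0.046 with the mean of probe sets, against 0.05 as reported. The causes were not tested. No scaling moved the median of all genes by more than 0.04. No paired analysis other than the limma fit was possible because no group has more than 1 array and the labels carry no replicate numbers. The CD30 term of limma already compares the sorts within a lineage. No array could be left out, since that leaves no residual degree of freedom. With 1 array per population, ratios near the SD of a log2 ratio per probe set are no larger than the difference between probe sets. That SD was 0.199 to 0.308 over all genes with at least 2 probe sets at 300 or more, and 0.256 to 0.293 over the 30 genes.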
